A study of Mus musculus with 3 samples.

Results

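The genes described here encode the ligands and receptors of the classical guidance pathways: the ephrins and their Eph receptors, the semaphorins with their plexin and neuropilin receptors, and the Slit proteins with their Robo receptors. They were taken by symbol, as every gene whose symbol belongs to one of these families. The rule itself uses no measured value, but the families were chosen with earlier results of these data known. 63 of the 31054 genes listed in the data met this rule: 5 A-type ephrins, 3 B-type ephrins, 9 EphA receptors, 5 EphB receptors, 20 semaphorins, 9 plexins, 2 neuropilins, 4 Robo receptors, 3 Slit ligands and 3 transcripts annotated opposite to Plxna4 (Plxna4os1, Plxna4os2 and Plxna4os3).

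Guidance ligands are membrane-bound or secreted proteins that attract or repel cells and growing axons. Ephrins act on Eph receptor tyrosine kinases when cells touch, A-type ephrins being tethered by a lipid anchor and B-type ephrins crossing the membrane. Semaphorins signal through plexins, the secreted class mostly with a neuropilin as partner, and Slits signal through Robo receptors. Before axons form, the same molecules are known for separating tissues from each other, for shaping somites and blood vessels and for sorting the segments of the hindbrain.

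The samples were 3 wild-type (WT) mouse embryos on a C57BL/6 x 129 SvEv background, collected at embryonic day 8.0 and staged at 0 to 1 somite in the protocol, where the sample label gives 0 to 2 somites. Each embryo was dissociated whole after its extraembryonic tissue had been taken off, and gave 1 droplet library of messenger RNA 3′ ends. All 3 embryos carried the same genotype and no treatment, so the comparisons were between cell lineages of the same embryos.

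Cells were placed in 16 lineages by the unique molecular identifiers (UMIs, each standing for 1 captured RNA molecule) of marker genes, none of which was a guidance gene. Because the lineages rest on these markers alone, each is called by its name with the ending -like. Of 21595 cells kept, 14353 were placed. The smallest lineages were the left-right organizer-like cells (LRO-like; 37, 33 and 32 cells in embryos 1, 2 and 3), the axial mesoderm-like cells (22, 38 and 26) and the primordial germ cell-like cells (26, 15 and 32). Extraembryonic endoderm-like cells made up 271, 1188 and 930 cells although that tissue was meant to be removed. Erythroid-like cells numbered 2, 789 and 257, and the 2 cells of embryo 1 were not used, so this lineage had n = 2. In 14 of the 16 lineages the marker list reached a higher summed level than in any other lineage. The exceptions shared the gene T: the axial list summed to 2196 counts per 1000000 UMIs (CPM) in LRO-like and 1915 CPM in axial mesoderm-like cells, and the list for caudal epiblast and neuromesodermal progenitors (NMPs) summed to 1609 CPM in LRO-like and 924 CPM in NMP-like cells. The list for the LRO itself summed to 3917 CPM in LRO-like and 258 CPM in axial mesoderm-like cells. Single markers could depart from their list. Cyp26a1 was at 23.2, 25.8 and 23.6 CPM inside NMP-like cells and at 30.4, 26.2 and 26.4 CPM outside. En1, En2, Wnt1 and Pax5 were at 2.93 CPM or less in midbrain-hindbrain-like cells of embryos 1 and 3. In embryo 3 En2 was lower inside than outside (0.140 against 0.309 CPM).

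The 3 libraries held 6579, 8621 and 8333 barcodes, with a median of 27635, 14615 and 16332.5 UMIs in the cells kept, so embryo 1 was the most deeply sampled. Of 23475 distinct barcodes 56 occurred in 2 libraries and 1 in all 3. The LRO-like sums held 747192, 352581 and 477521 UMIs, and the smallest sum of all was the germ cell-like sum of embryo 2, at 159810 UMIs.

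Levels were given as CPM, the UMIs of a gene scaled to the total UMIs of a lineage in 1 embryo, as mean ± SD over embryos. They were compared between lineages for 1 gene at a time, never between genes. Each lineage was set against the mean log level of the other 15 lineages, so a log2 difference against the others is not the ratio of mean CPM values. A gene was called higher or lower at an edgeR adjusted p (quasi-likelihood test with Benjamini-Hochberg adjustment over all genes tested) under 0.05. Of the 63 guidance genes, 53 passed the filter on low counts, and their median level was 9.96 CPM where that of the 15001 genes tested was 11.1 CPM. In 13 of the 53 at least 1 lineage had no UMI. The coefficient of such a lineage has no finite estimate, so a lower call against the others could scarcely be made for these genes, and no fold against the others is given for them here. Among their 208 tests edgeR made 53 higher and 3 lower calls, where limma-voom, which adds a small count to every sum, made 53 and 41. The higher calls were not all the same: limma-voom lost 10 of the edgeR calls and gained 10 higher ones. In limma-voom 4 higher calls fell in a lineage without a UMI of the gene. Among the 640 tests of the other 40 genes edgeR made 208 higher and 147 lower calls and limma-voom 208 and 145.

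Every one of the 53 genes tested was called higher in at least 1 lineage, as were 93.4% of all 15001 genes tested. The level in the top lineage exceeded the median lineage by more than 5-fold in 24 guidance genes (45.3%, beside 27.3% of all genes) and by more than 3-fold in 37 (69.8%, beside 38.9%), with a median of 4.80-fold beside 2.21-fold. The LRO-like cells held the highest mean level of 10 of the 53 (18.9%), close to their share of all genes (21.1%). Presomitic mesoderm-like cells led for 6 (11.3%, beside 2.33% of all genes) and endothelium-like cells for 5 (9.43%, beside 7.05%).

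**Figure D1:**
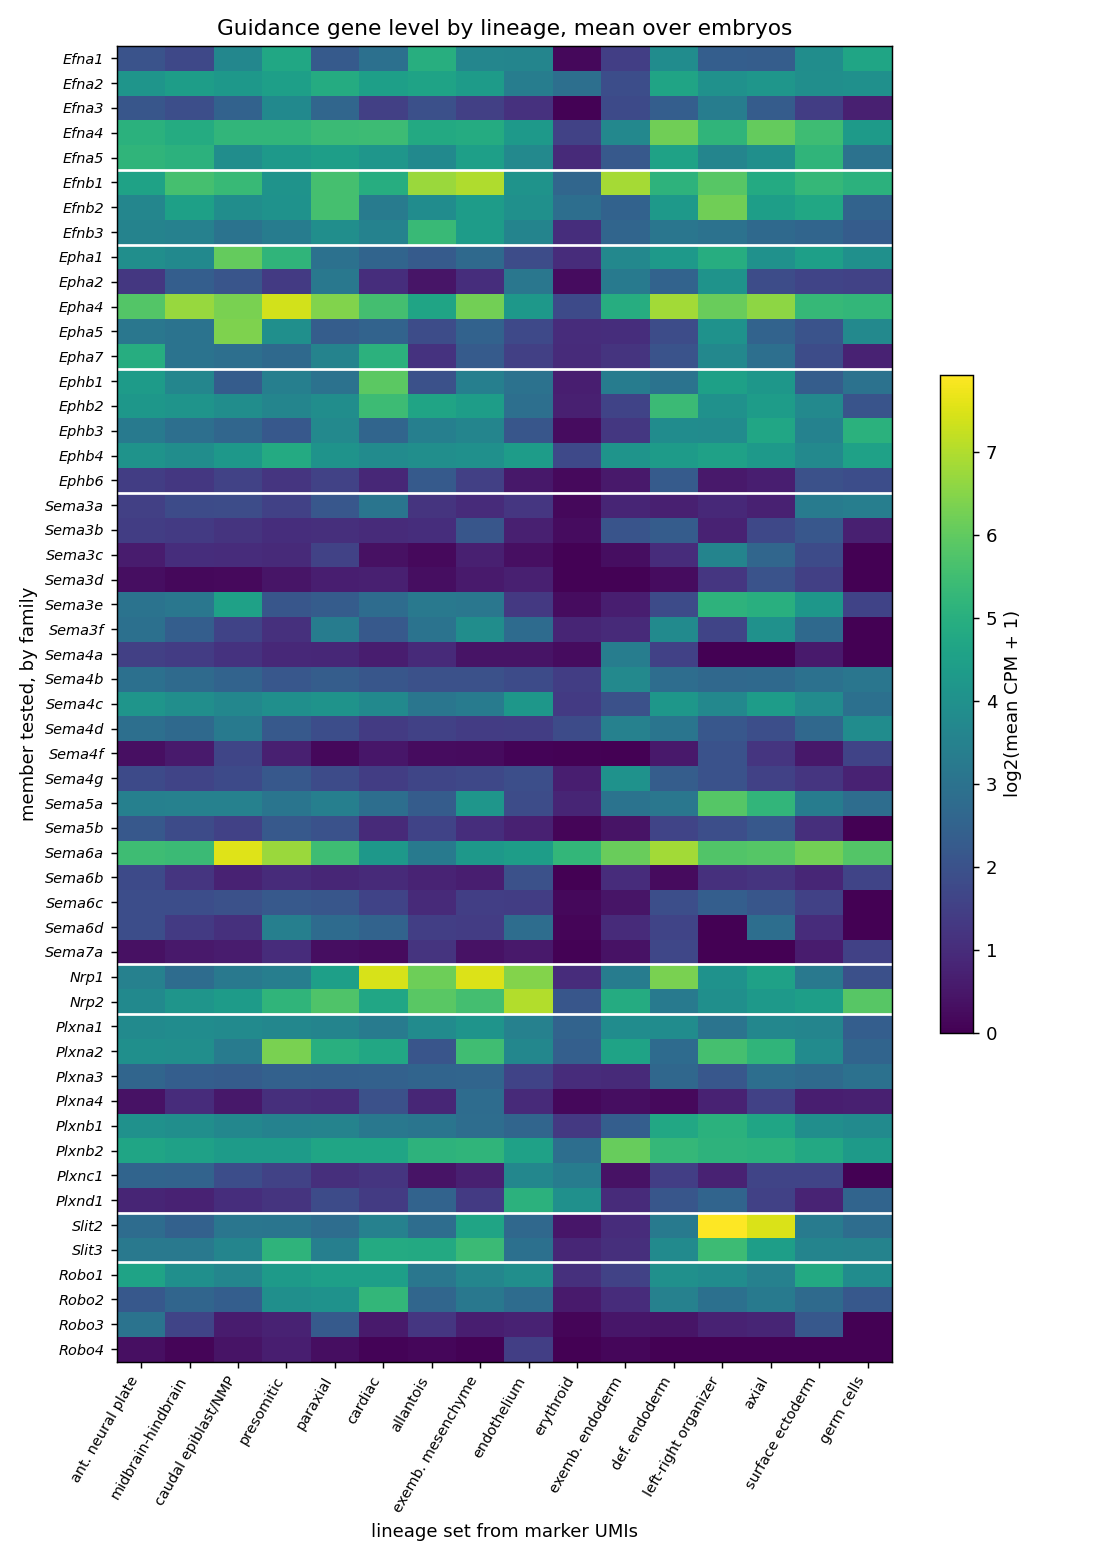
Mean level of the 53 guidance genes tested (rows, grouped by family between white lines) in 16 lineages set by marker genes (columns), as log2(mean CPM + 1), from dark (0) to yellow. Slit2 stands out in the left-right organizer and axial columns, Sema6a in the caudal epiblast/NMP column and Nrp2 in the endothelium column, while the erythroid column is dark in most rows.

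Guidance genes were called more often than the genes tested at large in 15 of the 16 lineages. The largest shares were in extraembryonic endoderm-like cells, with 40 of 53 (15 higher, 25 lower) where 64.5% of all genes were called (37.6% higher, 26.8% lower), and in erythroid-like cells, with 40 of 53 (2 higher, 38 lower) where 57.2% were called (29.0% higher, 28.2% lower). Both backgrounds were themselves high. The median log2 difference of guidance genes was -1.05 in extraembryonic endoderm-like and -2.77 in erythroid-like cells, beside 0.014 and -0.16 over all genes. Both lineages are part of the reference for every other lineage, so their low levels raise the differences of guidance genes there as a set. The splits into higher and lower calls depend in part on this reference. A split without the erythroid-like sums is given below for midbrain-hindbrain-like cells only. In endothelium-like cells 34 were called (14 higher, 20 lower) against 41.4% (25.1% and 16.3%), and in definitive endoderm-like cells 32 (27 and 5) against 42.0% (25.8% and 16.2%).

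In the mesoderm the counts were 27 of 53 (24 higher, 3 lower) in somitic and head paraxial mesoderm-like cells against 23.1% of all genes (14.6% and 8.49%), 26 (22 and 4) in presomitic mesoderm-like cells against 24.9% (16% and 8.95%) and 19 (14 and 5) in cardiac mesoderm-like cells against 20.8% (13.9% and 6.89%). They were 29 (23 and 6) in extraembryonic mesenchyme-like cells against 29.1% (19.5% and 9.66%) and 25 (13 and 12) in allantois-like cells against 30.8% (17.2% and 13.7%), and limma-voom gave 11 higher and 15 lower in the latter. NMP-like cells had 23 calls (17 and 6) against 27.0% (17.0% and 10.0%), a split that became 14 higher and 9 lower in limma-voom.

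In the ectoderm 29 were called (21 and 8) in anterior neural plate-like cells against 29.2% (17.4% and 11.8%), 26 (20 and 6) in midbrain-hindbrain-like cells against 28.1% (16.1% and 12%), which came to 14 without embryo 2 and to 17 (10 and 7) without the erythroid-like sums, and 21 (17 and 4) in surface ectoderm-like cells against 17.9% (11.8% and 6.09%). Axial mesoderm-like cells had 14 calls, each higher, against 16.2% (9.25% higher, 6.95% lower), a count that dropped to 9 without embryo 2. LRO-like cells formed the exception to the pattern, with 14 calls (13 higher, 1 lower) or 26.4% of guidance genes where 37.3% of all genes were called (20.4% higher, 16.9% lower). The shortfall lay in the lower calls, at 1.89% of guidance genes, while 24.5% were called higher. In this lineage 4 of the 53 genes had no UMI. Germ cell-like cells had 12 calls (5 higher, 7 lower) against 16.4% of all genes (8.37% higher, 8.03% lower), a count that came to 3 without embryo 1. There limma-voom gave 11 higher and 7 lower, but its median log2 difference over all genes was 0.213, beside -0.13 in edgeR.

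**Figure D2:**
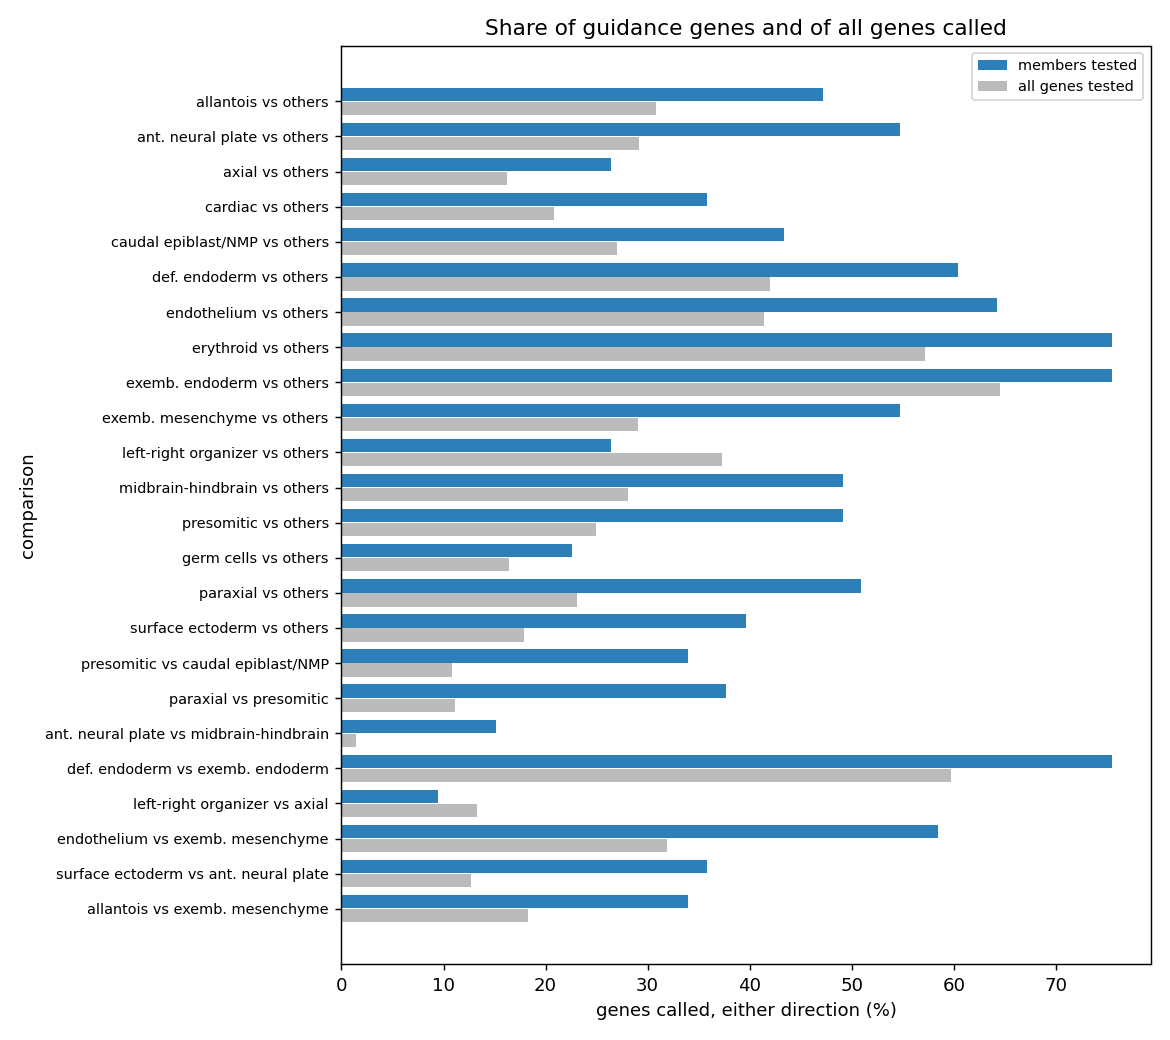
Share of the 53 guidance genes tested (blue bars, members) and of all genes tested (grey bars) called in either direction, in percent, for 16 lineages against the mean of the others and for 8 pairs of lineages. The blue bar is the longer in every comparison except the left-right organizer against the others and against axial mesoderm.

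Slit2, a secreted ligand of the Robo receptors that is known from the ventral midline of the neural tube, separated the midline lineages from the rest. Its level was 312, 233 and 184 CPM in the LRO-like cells of embryos 1, 2 and 3, and 146, 232 and 154 CPM in the axial mesoderm-like cells. Both lineages lay above every other lineage in every embryo, the next being extraembryonic mesenchyme-like cells at 23.1, 24.8 and 23.0 CPM. On the log2 scale Slit2 was higher than in the others by 4.96 (SE 0.160, edgeR adjusted p = 2.6e-28) in LRO-like and by 4.54 (SE 0.180, edgeR adjusted p = 5.3e-24) in axial mesoderm-like cells. LRO-like cells were above axial mesoderm-like cells in 3 of 3 embryos, though the groups overlapped, and the difference of 0.39 (SE 0.213, edgeR adjusted p = 0.266, and 0.15 with the embryo as a block) did not pass. At the other end stood extraembryonic endoderm-like cells, at 1.03 ± 0.291 CPM (n = 3), and erythroid-like cells, at 0.395 ± 0.0931 CPM (n = 2).

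Sema5a and Sema3e had the same leading lineages. Sema5a, a membrane-bound semaphorin with thrombospondin repeats, was at 83.0, 56.7 and 27.2 CPM in LRO-like and at 44.7, 38.9 and 25.2 CPM in axial mesoderm-like cells. The deepest embryo was the highest and embryo 3 the lowest in both, and every value was above the 13.7 to 21.8 CPM of extraembryonic mesenchyme-like cells. Sema5a was higher than in the others by 2.80 on the log2 scale (SE 0.249, edgeR adjusted p = 7.3e-13) in LRO-like and by 2.19 (SE 0.296, edgeR adjusted p = 2.1e-07) in axial mesoderm-like cells. Between these lineages it was higher in LRO-like cells in 3 of 3 embryos, and the difference of 0.57 (SE 0.325, edgeR adjusted p = 0.294, and 0.22 with the block) did not pass.

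Sema3e, a secreted semaphorin that binds Plxnd1 without a neuropilin, was at 29.4, 48.2 and 25.1 CPM in LRO-like cells and at 36.1, 40.9 and 16.04 CPM in axial mesoderm-like cells. NMP-like cells followed at 22.0, 28.0 and 17.2 CPM and surface ectoderm-like cells at 19.0, 15.4 and 17.1 CPM, so the ranges of these lineages overlapped, embryo 3 of the axial group being among the lowest. The log2 difference from the others was 2.62 (SE 0.336, edgeR adjusted p = 1.3e-08) for LRO-like, 2.67 (SE 0.341, edgeR adjusted p = 6.5e-08) for axial mesoderm-like, 2.25 (SE 0.154, edgeR adjusted p = 7.1e-16) for NMP-like and 1.87 (SE 0.204, edgeR adjusted p = 1.1e-09) for surface ectoderm-like cells. Endothelium-like cells had 1.47 CPM of Sema3e on average.

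Because these 3 ligands led in the same lineages, the DNA just upstream of their start sites is shown for comparison, from 250 to 51 bases before the start, 5′ to 3′ on the gene's strand, as RefSeq gives it for GRCm38.p6. Capitals mark GC boxes (GGGCGG on either strand). The windows lie at chr5:47982905-47983104 (Slit2), chr5:14025026-14025225 (Sema3e) and chr15:32244563-32244762 (Sema5a), each on the plus strand.
Slit2: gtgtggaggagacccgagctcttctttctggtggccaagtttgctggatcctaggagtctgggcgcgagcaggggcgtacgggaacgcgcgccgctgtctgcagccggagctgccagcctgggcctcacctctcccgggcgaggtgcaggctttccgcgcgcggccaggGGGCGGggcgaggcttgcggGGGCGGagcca
Sema3e: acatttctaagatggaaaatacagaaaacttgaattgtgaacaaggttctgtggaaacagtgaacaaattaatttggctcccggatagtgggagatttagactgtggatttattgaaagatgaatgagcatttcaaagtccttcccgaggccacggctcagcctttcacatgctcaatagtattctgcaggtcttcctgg
Sema5a: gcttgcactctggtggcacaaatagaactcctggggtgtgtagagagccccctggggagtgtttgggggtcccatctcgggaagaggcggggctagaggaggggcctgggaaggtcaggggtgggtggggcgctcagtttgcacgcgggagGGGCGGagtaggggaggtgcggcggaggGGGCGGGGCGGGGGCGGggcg
The windows differed in composition. Slit2 held 2 GC boxes in 71.5% G and C, Sema5a held 4 in 70.5%, those starting at 71 and 66 bases before the start sharing a base, and Sema3e held none in 41%. GC boxes occurred in 24.6% of 32851 windows of this length over all genes, and in 39 of the 69 windows (56.5%) of the 53 guidance genes that were matched. The median G and C content was 63% in the guidance windows and 51.5% over all. Neither of 2 forkhead letter strings (TGTTTAC and TGTTTGC, in 2.58% and 3.55% of all windows) nor a T-box string (AGGTGTGA, in 0.922%) was found in the 3 windows on either strand.

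Slit3, a second Slit ligand, was spread over more mesodermal lineages. It was at 38.8, 42.5 and 46.1 CPM in LRO-like cells, at 44.8, 35.8 and 43.9 CPM in extraembryonic mesenchyme-like cells and at 37.4, 30.8 and 35.9 CPM in presomitic mesoderm-like cells, so extraembryonic mesenchyme-like cells overlapped both others, while every LRO-like value lay above every presomitic value. The log2 differences from the others were 1.78 (SE 0.235, edgeR adjusted p = 2.8e-08), 1.99 (SE 0.108, edgeR adjusted p = 7.9e-20) and 1.71 (SE 0.112, edgeR adjusted p = 1.1e-16). In axial mesoderm-like cells Slit3 differed by 0.83 (SE 0.294, edgeR adjusted p = 0.0449), and this call was lost with the embryo as a block (edgeR adjusted p = 0.0581), without embryo 1 (0.49, edgeR adjusted p = 0.587) and without embryo 3 (1.02, edgeR adjusted p = 0.0546).

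The Robo receptors were highest outside LRO-like and axial mesoderm-like cells, as were most genes. LRO-like cells led for 21.1% of all genes tested and axial mesoderm-like cells for 7.13%. Robo1 reached 34.9, 23.6 and 22.3 CPM in surface ectoderm-like cells and 26.3, 22.3 and 21.6 CPM in anterior neural plate-like cells, where it was 12.05, 19.9 and 8.38 CPM in LRO-like cells. It was higher than in the others by 1.36 (SE 0.135, edgeR adjusted p = 7.5e-11) in surface ectoderm-like and by 1.14 (SE 0.120, edgeR adjusted p = 2.2e-10) in anterior neural plate-like cells. Robo2 was highest in cardiac mesoderm-like cells, at 42.8, 29.6 and 38.3 CPM, above each embryo of paraxial mesoderm-like cells (15.2 to 16.3 CPM), with a log2 difference of 2.90 (SE 0.165, edgeR adjusted p = 8.1e-19). No Robo receptor was called in LRO-like cells in either direction, 0 of 4, where 37.3% of all genes were called. So small a number of genes does not tell a shortfall from that share. None of the 4 reached an unadjusted p under 0.05 there and DESeq2 called none, while limma-voom called Robo4 higher although no UMI of it was seen.

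Robo3 and Robo4 were scarce. Robo3, a receptor of commissural axons, was at 5.91, 10.4 and 4.82 CPM in anterior neural plate-like cells (edgeR adjusted p = 4.5e-13 against the others). Robo4, a receptor known from blood vessels, was at 2.32, 1.31 and 1.75 CPM in endothelium-like cells (edgeR adjusted p = 1.1e-08 against the others) had no UMI in 6 lineages, and did not pass the filter without embryo 1. Slit1 did not pass the filter, with 247 UMIs in all cells kept.

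**Figure D3:**
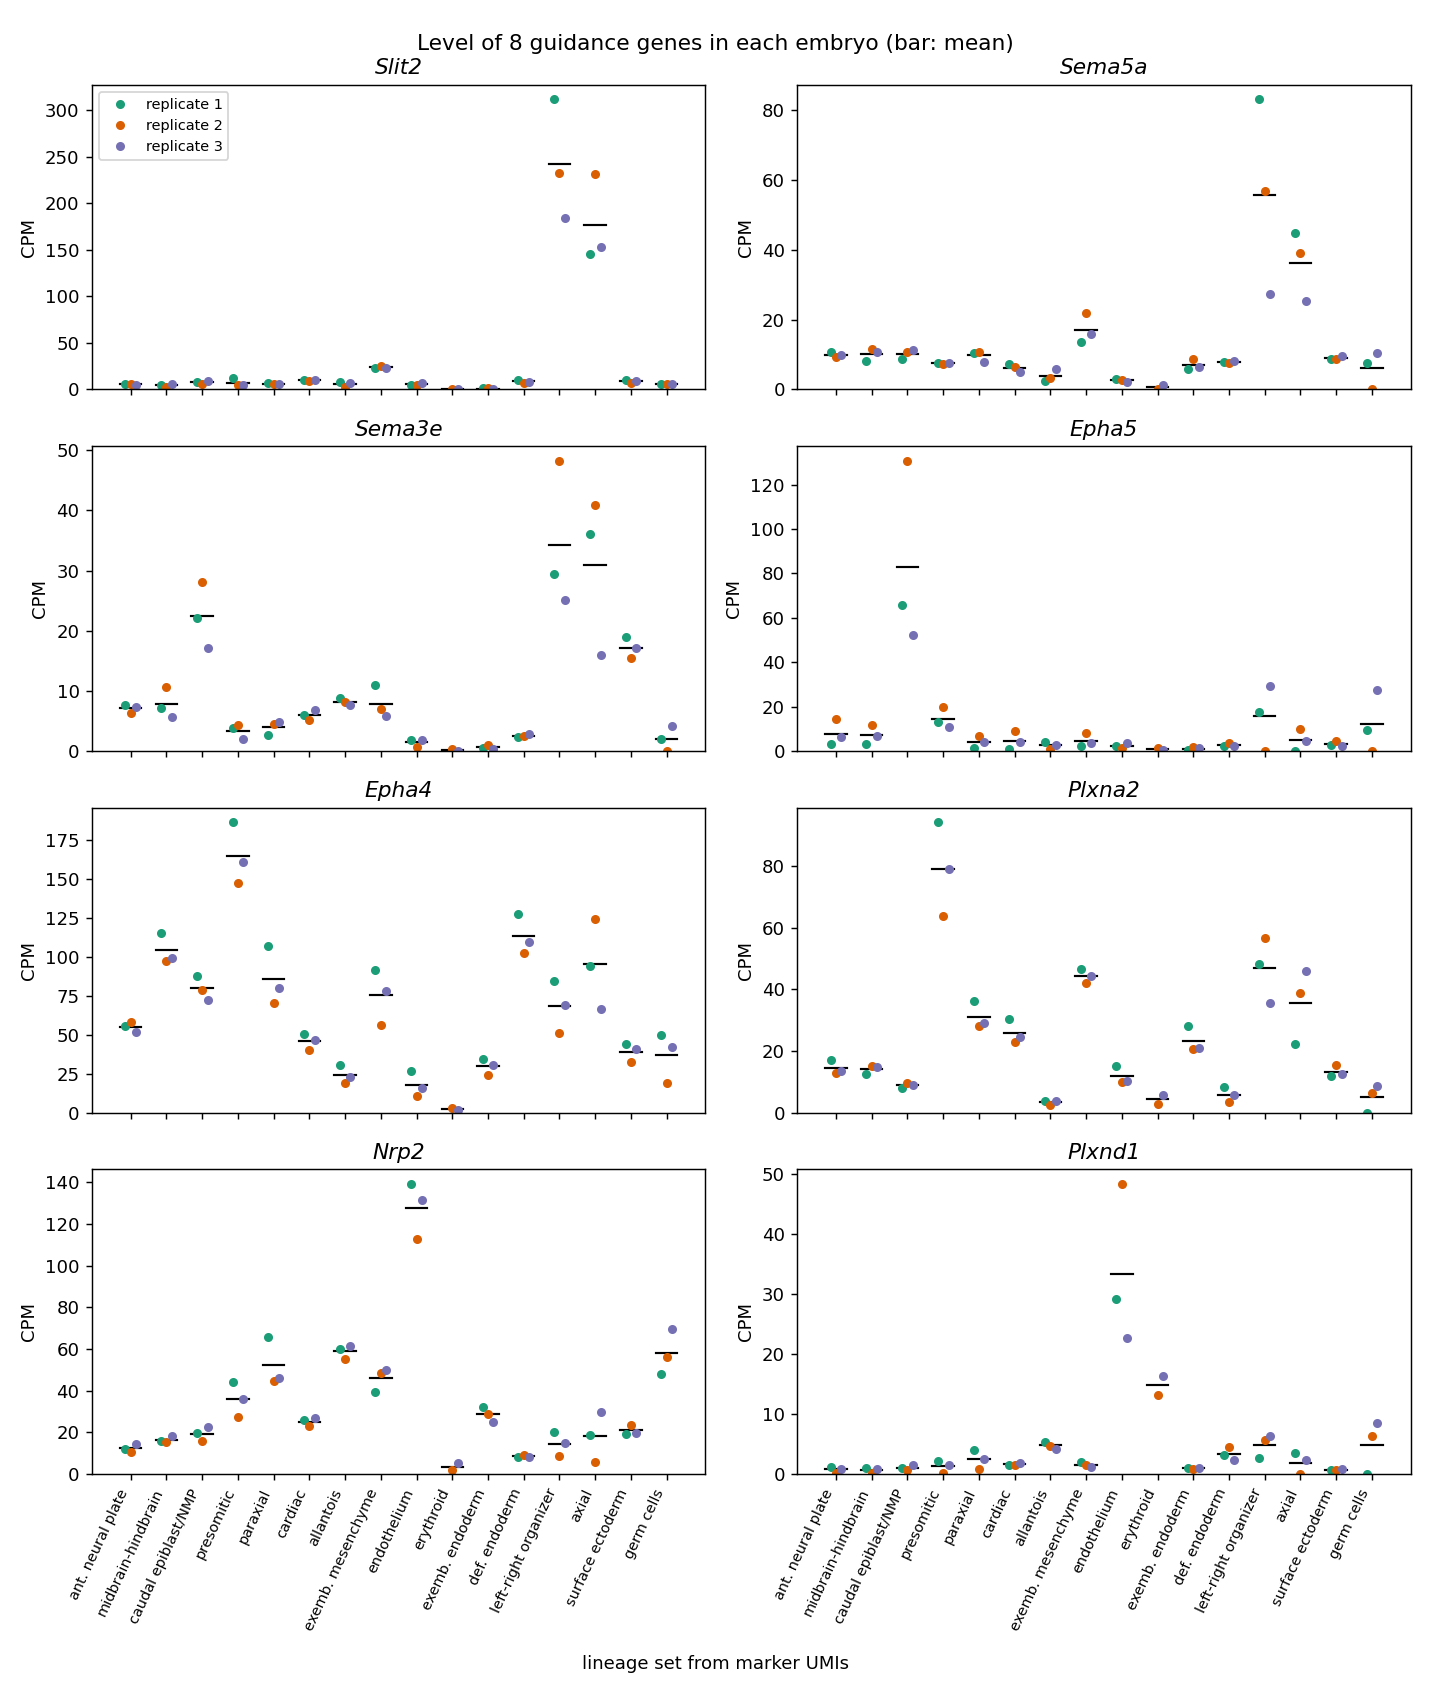
Level of 8 guidance genes in CPM (y axes, linear) in each embryo (coloured points) and lineage (x axes), with the mean as a bar. Slit2 lies between 146 and 312 CPM in left-right organizer and axial cells of every embryo and at 24.8 CPM or less elsewhere, while Epha5 in caudal epiblast/NMP cells and Sema5a in left-right organizer cells spread widely between embryos.

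Of the 19 semaphorins tested, 4 were called higher in LRO-like cells, Sema5a, Sema3e, Sema3c and Sema4f, a share near the 20.4% of all genes called higher there. Sema3c, a secreted semaphorin known from the cardiac outflow tract, was at 8.03, 14.2 and 10.5 CPM there (edgeR adjusted p = 1.4e-07 against the others). Axial mesoderm-like cells were lower in each embryo, at 5.15, 7.78 and 2.29 CPM. A count of 3 UMIs equals 4.02, 8.51 and 6.28 CPM in LRO-like and 5.15, 5.84 and 6.87 CPM in axial mesoderm-like sums. The order of these 2 lineages for Sema3c therefore rested on few UMIs. Sema4f also rested on few UMIs, at 4.02, 2.84 and 2.09 CPM (edgeR adjusted p = 0.016), and was not called without embryo 1 (edgeR adjusted p = 0.239).

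Sema6a, a membrane-bound semaphorin that binds Plxna2 and Plxna4, was at 218, 158 and 176 CPM in NMP-like cells. Every embryo was above the 102, 103 and 131 CPM of definitive endoderm-like cells and the 114, 102 and 98.9 CPM of presomitic mesoderm-like cells. It was higher than in the others by 2.15 (SE 0.094, edgeR adjusted p = 2.7e-22) in NMP-like, by 1.33 (SE 0.106, edgeR adjusted p = 2.7e-14) in definitive endoderm-like and by 1.29 (SE 0.105, edgeR adjusted p = 9.6e-14) in presomitic mesoderm-like cells. In extraembryonic endoderm-like cells (62.9, 61.8 and 78.6 CPM) the log2 difference of Sema6a was 0.89 (SE 0.106, edgeR adjusted p = 5.7e-10). Its lowest level was in allantois-like cells, at 8.62 ± 2.13 CPM (n = 3).

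Of the class 4 semaphorins, Sema4c, Sema4d and Sema4f were highest in axial mesoderm-like, germ cell-like and LRO-like cells. Sema4a, Sema4b and Sema4g were highest in extraembryonic endoderm-like cells. That lineage led for 4 of the 53 guidance genes (7.55%), beside 14.3% of all genes tested. Sema4g was at 15.1, 15.7 and 16.1 CPM there and at 4.71, 3.81 and 3.82 CPM in definitive endoderm-like cells, with a log2 difference from the others of 3.17 (SE 0.142, edgeR adjusted p = 9.9e-24). Sema4a was at 10.6, 7.42 and 9.80 CPM, with 1.87 ± 0.225 CPM (n = 3) in definitive endoderm-like cells, the next lineage. Sema4b, at 14.6, 10.9 and 11.7 CPM, was higher by 1.77 (SE 0.111, edgeR adjusted p = 1.8e-18). The groups did not overlap for Sema4a and Sema4g, and for Sema4b only the germ cell-like sum of embryo 2, at 12.5 CPM, reached into the range. That value lay below the 18.8 CPM that 3 UMIs equal in this sum.

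Among other semaphorins, Sema3a, the founding repellent of the family, was at 8.40, 11.8 and 6.33 CPM in surface ectoderm-like cells, with a log2 difference from the others of 2.51 (SE 0.266, edgeR adjusted p = 4.8e-10). It overlapped the 9.55, 12.5 and 6.34 CPM of germ cell-like cells (2.44, edgeR adjusted p = 0.0045), a call lost without embryo 1 (2.58, edgeR adjusted p = 0.124). A count of 3 UMIs equals 5.73, 18.8 and 6.34 CPM in the germ cell-like sums, so these values rested on few UMIs. Sema6d was at 12.8, 8.38 and 7.87 CPM in presomitic mesoderm-like cells (edgeR adjusted p = 8.2e-14 against the others), and no UMI of it was seen in LRO-like or germ cell-like cells. Sema3f had its highest mean in axial mesoderm-like cells, at 20.6, 3.89 and 20.6 CPM (edgeR adjusted p = 2.8e-04), and its embryos agreed more closely in extraembryonic mesenchyme-like cells, at 12.8, 14.3 and 13.9 CPM (edgeR adjusted p = 9.2e-13). Sema3d and Sema4c were also highest on average in axial mesoderm-like cells, at 3.43, 5.84 and 0 CPM and at 25.8, 19.5 and 13.7 CPM. The Sema3d values there rested on 3 UMIs or fewer in each embryo. Sema6c had its highest mean in LRO-like cells, where its 1.34, 2.84 and 8.38 CPM did not pass the test. Sema4c and Sema5b were broad, at 1.54-fold and 1.86-fold over the median lineage in their top lineage.

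Nrp1, the co-receptor of class 3 semaphorins that also binds vascular endothelial growth factor, was at 181, 194 and 172 CPM in extraembryonic mesenchyme-like cells and at 194, 172 and 157 CPM in cardiac mesoderm-like cells. Both lay above the 104, 86.7 and 70.4 CPM of endothelium-like cells, the 88.0, 89.1 and 63.4 CPM of definitive endoderm-like cells and the 73.7, 66.5 and 73.7 CPM of allantois-like cells in every embryo. The log2 difference from the others was 3.54 (SE 0.122, edgeR adjusted p = 1.4e-26) in extraembryonic mesenchyme-like, 3.48 (SE 0.129, edgeR adjusted p = 1.2e-25) in cardiac mesoderm-like and 2.41 (SE 0.143, edgeR adjusted p = 1.4e-18) in endothelium-like cells. It was 2.21 (SE 0.144, edgeR adjusted p = 4.5e-17) in definitive endoderm-like and 2.01 (SE 0.166, edgeR adjusted p = 1.9e-13) in allantois-like cells.

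Nrp2 led in endothelium-like cells, at 139, 113 and 132 CPM, above every other sum. The log2 difference was 2.58 (SE 0.102, edgeR adjusted p = 6.4e-25). Next came 3 lineages close to each other, allantois-like cells at 58.8 ± 3.43 CPM, germ cell-like cells at 58.0 ± 11.1 CPM and paraxial mesoderm-like cells at 52.2 ± 11.9 CPM (n = 3 each), with log2 differences of 1.28 (edgeR adjusted p = 9.2e-11), 1.26 (edgeR adjusted p = 3.5e-04) and 1.18 (edgeR adjusted p = 3.7e-11). Nrp2 was the only guidance gene called lower in LRO-like cells, by -0.90 on the log2 scale (SE 0.334, edgeR adjusted p = 0.0298). That call was lost in DESeq2 (-0.72, adjusted p = 0.0723), in limma-voom (-0.90, adjusted p = 0.0723), without embryo 1 (-1.24, edgeR adjusted p = 0.0724) and without embryo 3 (-0.74, edgeR adjusted p = 0.161).

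Among the plexins, Plxnd1 and Plxnc1 were highest in the blood and vessel lineages but were not confined to them. Plxnd1 was called higher in 3 lineages and Plxnc1 in 5. Plxnd1, the receptor of Sema3e, was at 29.1, 48.3 and 22.6 CPM in endothelium-like cells and at 13.2 and 16.3 CPM in the 2 embryos with erythroid-like sums, while every other sum was at 8.46 CPM or less. The log2 difference from the others was 4.03 (SE 0.195, edgeR adjusted p = 9.7e-22) in endothelium-like and 3.07 (SE 0.258, edgeR adjusted p = 6.2e-14; 2 of 2 embryos higher) in erythroid-like cells. Plxnc1, the receptor of Sema7a, was at 9.13, 12.2 and 13.9 CPM in endothelium-like (edgeR adjusted p = 1.2e-15) and at 8.96 and 9.21 CPM in erythroid-like cells (edgeR adjusted p = 2.3e-13).

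These plexins were the only guidance genes called higher in erythroid-like cells, where 38 were called lower: 18 of the 18 ephrins and Eph receptors tested, both Slits, both neuropilins, 2 of 4 Robo receptors, 6 of 8 plexins and 8 of 19 semaphorins. Robo3, Robo4 and several semaphorins were among the 13 genes for which edgeR could scarcely make a lower call. In limma-voom 47 guidance genes were lower and 2 higher in erythroid-like cells. The 9 endothelium markers summed to 156 CPM in erythroid-like and to 2354 CPM in endothelium-like cells, and the part of endothelial RNA in the erythroid levels of Plxnd1 and Plxnc1 was not tested. The median log2 difference of the guidance genes in erythroid-like cells was -2.77, or -2.72 with genes at no UMI set to 3 UMIs, beside -0.16 over all genes tested.

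Plxna2, a receptor of class 6 semaphorins, was highest in presomitic mesoderm-like cells, at 94.3, 64.0 and 79.0 CPM. The next lineages were LRO-like cells at 48.2, 56.7 and 35.6 CPM and extraembryonic mesenchyme-like cells at 46.7, 42.2 and 44.2 CPM, below the presomitic level of the same embryo. The log2 difference of Plxna2 from the others was 2.52 (SE 0.110, edgeR adjusted p = 9.1e-23) in presomitic mesoderm-like and 1.47 (SE 0.253, edgeR adjusted p = 6.1e-06) in LRO-like cells. Paraxial mesoderm-like cells, at 36.2, 28.0 and 29.1 CPM, differed by 1.08 (SE 0.130, edgeR adjusted p = 7.5e-09). Plxna4 was low throughout and led in extraembryonic mesenchyme-like cells at 5.55, 5.54 and 7.07 CPM.

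The B-class plexins, receptors of class 4 semaphorins, had separate leading lineages. Plxnb2 was at 74.3, 59.9 and 67.1 CPM in extraembryonic endoderm-like cells, above every other sum, with a log2 difference of 1.75 (SE 0.077, edgeR adjusted p = 7.0e-24). Plxnb1 was at 45.5, 19.9 and 31.4 CPM in LRO-like cells (1.66, SE 0.302, edgeR adjusted p = 1.5e-05), where it overlapped the 26.9, 22.2 and 28.4 CPM of definitive endoderm-like cells (1.36, SE 0.152, edgeR adjusted p = 4.3e-10). Plxnb3 had 4 UMIs in all cells kept and was not tested.

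The A-type ephrins were highest in different lineages. Efna1 was at 39.5, 24.1 and 28.5 CPM in allantois-like cells and at 30.4, 23.0 and 22.8 CPM in presomitic mesoderm-like cells, which overlapped, with log2 differences from the others of 2.36 (SE 0.193, edgeR adjusted p = 1.6e-13) and 2.17 (SE 0.164, edgeR adjusted p = 1.1e-14). In germ cell-like cells Efna1 was at 47.8 CPM in embryo 1 and at 12.5 and 12.7 CPM in embryos 2 and 3. The value of embryo 2 lay below the 18.8 CPM that 3 UMIs equal in its sum. In germ cell-like cells the difference of 2.25 (SE 0.420, edgeR adjusted p = 8.0e-05) came to 1.05 (edgeR adjusted p = 0.405) without embryo 1.

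Efna5, a ligand known for mapping axons in the visual system, was high in the ectoderm: 40.0, 32.6 and 33.3 CPM in surface ectoderm-like, 38.6, 36.1 and 30.7 CPM in anterior neural plate-like and 31.4, 37.2 and 29.9 CPM in midbrain-hindbrain-like cells. It was not confined to the ectoderm: 8 lineages were called higher, and the top lineage was 2.24-fold over the median lineage. The 3 ectoderm lineages overlapped, and each of their sums was above the mean of the other lineages. The log2 differences were 1.52 (SE 0.130, edgeR adjusted p = 1.3e-12), 1.51 (SE 0.114, edgeR adjusted p = 1.5e-14) and 1.38 (SE 0.118, edgeR adjusted p = 9.1e-13).

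Efna4 was at 64.5, 76.1 and 78.0 CPM in definitive endoderm-like cells, with a log2 difference of 1.42 (SE 0.097, edgeR adjusted p = 1.5e-16), and overlapped the 60.1, 62.3 and 75.6 CPM of axial mesoderm-like cells. Efna3 led in presomitic mesoderm-like cells, at 11.9, 15.5 and 10.5 CPM, with a difference of 2.51 (SE 0.164, edgeR adjusted p = 1.0e-16). Efna2 ranged from 2.63 ± 0.784 CPM in extraembryonic endoderm-like to 28.6 ± 6.93 CPM in paraxial mesoderm-like cells (n = 3 each). Its difference of 0.45 (SE 0.146, edgeR adjusted p = 0.016) in midbrain-hindbrain-like cells was lost without embryo 2 (0.47, edgeR adjusted p = 0.063) and without embryo 3 (0.47, edgeR adjusted p = 0.105).

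Of the EphA receptors, Epha1 and Epha5 peaked in NMP-like cells. Epha1 was at 75.4, 64.6 and 57.8 CPM there and at 34.0, 38.3 and 34.1 CPM in presomitic mesoderm-like cells, with no overlap and log2 differences from the others of 2.80 (SE 0.085, edgeR adjusted p = 4.2e-28) and 1.84 (SE 0.099, edgeR adjusted p = 1.2e-19). In surface ectoderm-like cells Epha1 was at 22.5, 22.2 and 19.5 CPM (1.09, SE 0.129, edgeR adjusted p = 9.0e-09). Epha5 was at 65.9, 131 and 52.3 CPM in NMP-like cells, a spread of more than 2-fold in which embryo 2 stood highest, yet every embryo was above all sums of the other lineages. The log2 difference of Epha5 was 4.21 (SE 0.241, edgeR adjusted p = 2.0e-18). LRO-like cells followed at 17.4, 0 and 29.3 CPM (1.57, edgeR adjusted p = 0.15).

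Epha4, a receptor for both ephrin classes that is known from somite borders and hindbrain segments, was at 186, 147 and 161 CPM in presomitic mesoderm-like cells. Definitive endoderm-like cells (128, 103 and 109 CPM) and midbrain-hindbrain-like cells (116, 97.6 and 99.4 CPM) came next and overlapped. The log2 differences were 1.87 (SE 0.107, edgeR adjusted p = 1.1e-18), 1.23 (SE 0.117, edgeR adjusted p = 4.4e-12) and 1.17 (SE 0.117, edgeR adjusted p = 8.0e-11). Epha7 had a pair of leading lineages of different germ layers, cardiac mesoderm-like cells at 41.4, 31.0 and 26.9 CPM and anterior neural plate-like cells at 32.3, 32.0 and 24.0 CPM, with differences of 3.15 (SE 0.157, edgeR adjusted p = 8.0e-21) and 2.94 (SE 0.149, edgeR adjusted p = 2.8e-20).

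Epha2 was low, at 16.1, 22.7 and 8.38 CPM in LRO-like cells (2.57, SE 0.455, edgeR adjusted p = 9.4e-06), 11.6, 7.05 and 7.43 CPM in extraembryonic endoderm-like cells and 10.1, 7.43 and 6.07 CPM in endothelium-like cells. The LRO-like level of embryo 3 lay within the range of the other two lineages. Epha3, Epha6, Epha8 and Epha10 did not pass the filter, with 137, 6, 197 and 70 UMIs in all cells kept.

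The B-type ephrins had different leading lineages, but their calls were not confined to these. All 3 were called higher in extraembryonic mesenchyme-like cells (beside 19.5% of all genes), and all 3 in paraxial mesoderm-like cells (beside 14.6%). None was called higher in cardiac, presomitic or axial mesoderm-like, NMP-like, definitive endoderm-like, erythroid-like or germ cell-like cells. Efnb1 was at 102, 159 and 120 CPM in extraembryonic mesenchyme-like cells, at 124, 106 and 116 CPM in extraembryonic endoderm-like cells and at 89.5, 100 and 124 CPM in allantois-like cells, with log2 differences from the others of 1.95 (SE 0.099, edgeR adjusted p = 9.3e-21), 2.04 (SE 0.097, edgeR adjusted p = 7.6e-23) and 1.57 (SE 0.115, edgeR adjusted p = 5.2e-15). These 3 lineages overlapped and lay above every sum of the rest, where LRO-like cells led with 65.2 CPM in embryo 2. Efnb3 was at 39.5, 36.7 and 44.1 CPM in allantois-like cells, above every other sum, with a difference of 2.42 (SE 0.139, edgeR adjusted p = 1.2e-18).

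Efnb2, known from somite borders and arteries, was at 93.7, 79.4 and 46.1 CPM in LRO-like cells and at 54.7, 45.0 and 42.8 CPM in paraxial mesoderm-like cells. In each embryo the LRO-like level was the higher. The log2 difference from the others was 2.22 (SE 0.225, edgeR adjusted p = 2.8e-11) in LRO-like and 1.75 (SE 0.126, edgeR adjusted p = 2.8e-15) in paraxial mesoderm-like cells.

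The EphB receptors were highest in lineages other than those led by Efnb1, Efnb2 and Efnb3, as were most genes. Of all genes tested, 3.42% were highest in extraembryonic mesenchyme-like, 21.1% in LRO-like and 5.57% in allantois-like cells. Ephb6 was at 3.86 CPM in definitive endoderm-like cells and at 3.70 CPM in allantois-like cells, where Efnb3 led. LRO-like cells, where Efnb2 led, nonetheless came second for Ephb1 (21.7 CPM) and Ephb4 (22.4 CPM). Ephb1 was at 59.8, 56.5 and 64.2 CPM in cardiac mesoderm-like cells, above every other sum, with a log2 difference of 3.12 (SE 0.121, edgeR adjusted p = 8.9e-25). Ephb2 was at 47.2, 39.0 and 41.2 CPM in cardiac mesoderm-like and at 46.5, 44.7 and 33.3 CPM in definitive endoderm-like cells, where it was higher by 2.05 (SE 0.106, edgeR adjusted p = 3.2e-20) and 1.93 (SE 0.102, edgeR adjusted p = 2.9e-20). Ephb3 was at 32.5, 37.5 and 27.5 CPM in germ cell-like cells (2.35, SE 0.351, edgeR adjusted p = 1.5e-06) and reached 37.8, 11.7 and 25.2 CPM in axial mesoderm-like cells. Ephb4, the venous partner of Efnb2, lay between 12.2 and 27.8 CPM on average outside the erythroid-like cells and was highest in presomitic mesoderm-like cells at 35.4, 21.7 and 26.2 CPM (0.93, SE 0.131, edgeR adjusted p = 2.6e-07).

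Neighbouring lineages were compared next, to ask which guidance genes differ where tissues adjoin or where cells pass from one state to the next. Between presomitic mesoderm-like and NMP-like cells 18 of 53 guidance genes were called (11 higher in presomitic, 7 lower), where 10.8% of all genes were (5.61% and 5.17%). Sema6d (3.21, SE 0.303, edgeR adjusted p = 1.7e-10), Plxna2 (3.18, SE 0.181, edgeR adjusted p = 3.3e-17) and Robo2 (1.84, SE 0.254, edgeR adjusted p = 4.3e-07) were the most raised in presomitic cells. Sema3e fell by 2.72 (SE 0.257, edgeR adjusted p = 6.0e-11), Epha5 fell by 2.54 (SE 0.408, edgeR adjusted p = 8.5e-06) and Efnb1 fell by 1.35 (SE 0.173, edgeR adjusted p = 9.3e-08).

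Between paraxial and presomitic mesoderm-like cells 20 were called (10 each way) against 11.1% of all genes (5.18% higher, 5.89% lower). Sema3f (2.81), Robo3 (2.46) and Epha2 (2.40) were the most raised in paraxial cells, and Efnb2 was higher by 1.60 (SE 0.187, edgeR adjusted p = 8.7e-09) beside Epha4, which fell by 0.94 (SE 0.164, edgeR adjusted p = 2.9e-05). Efna1 fell by 2.82 and Epha1 by 2.44. Sema7a, on 33 UMIs in presomitic cells, fell by 2.21 (edgeR adjusted p = 0.021), and that call was lost in DESeq2 (adjusted p = 0.0823) and without any 1 embryo (-1.91 to -2.64, edgeR adjusted p = 0.0521 to 0.244).

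Between anterior neural plate-like and midbrain-hindbrain-like cells 1.47% of all genes were called (0.82% higher, 0.647% lower), and 8 of 53 guidance genes (15.1%) were, 4 each way. Epha7 was higher anteriorly by 2.09 (SE 0.222, edgeR adjusted p = 7.1e-09), at 32.3, 32.0 and 24.0 CPM against 6.27, 8.28 and 6.71 CPM. Efnb1 fell by 1.04 (SE 0.171, edgeR adjusted p = 1.0e-04). The count was 4, 3 and 3 without embryos 1, 2 and 3. Epha4 fell by 0.91 (SE 0.170, edgeR adjusted p = 9.2e-04) and by 0.90 without embryo 3 (edgeR adjusted p = 0.133), and Robo3 rose by 1.80 (SE 0.367, edgeR adjusted p = 0.0029) but had adjusted p-values of 0.104, 0.0519 and 0.0591 without embryos 1, 2 and 3. Epha2 fell by 1.54 (edgeR adjusted p = 0.018; 0.418, 0.137 and 0.0763 without embryos 1, 2 and 3), and Ephb1 rose by 0.80 (edgeR adjusted p = 0.018; 0.211 without embryo 2 and 0.491 without embryo 3).

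Surface ectoderm-like and anterior neural plate-like cells differed in 19 guidance genes (11 higher in surface ectoderm, 8 lower) against 12.7% of all genes (6.9% and 5.77%), a count of 9 without embryo 1 and 11 without embryo 3. Sema3a was higher in surface ectoderm by 2.23 (SE 0.355, edgeR adjusted p = 6.5e-06), while Epha7 fell by 3.52 (SE 0.297) and Ephb1 by 2.30. Sema3d (2.60), Sema3c (2.26) and Sema4a (-1.98) were also called, but Sema3d lost its call without embryo 2 (2.05, edgeR adjusted p = 0.0749) and embryo 3 (2.51, edgeR adjusted p = 0.0529), Sema3c without embryo 1 (1.99, edgeR adjusted p = 0.133) and Sema4a without embryo 1 (-1.77, edgeR adjusted p = 0.247) and embryo 3 (-1.88, edgeR adjusted p = 0.104).

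**Figure D4:**
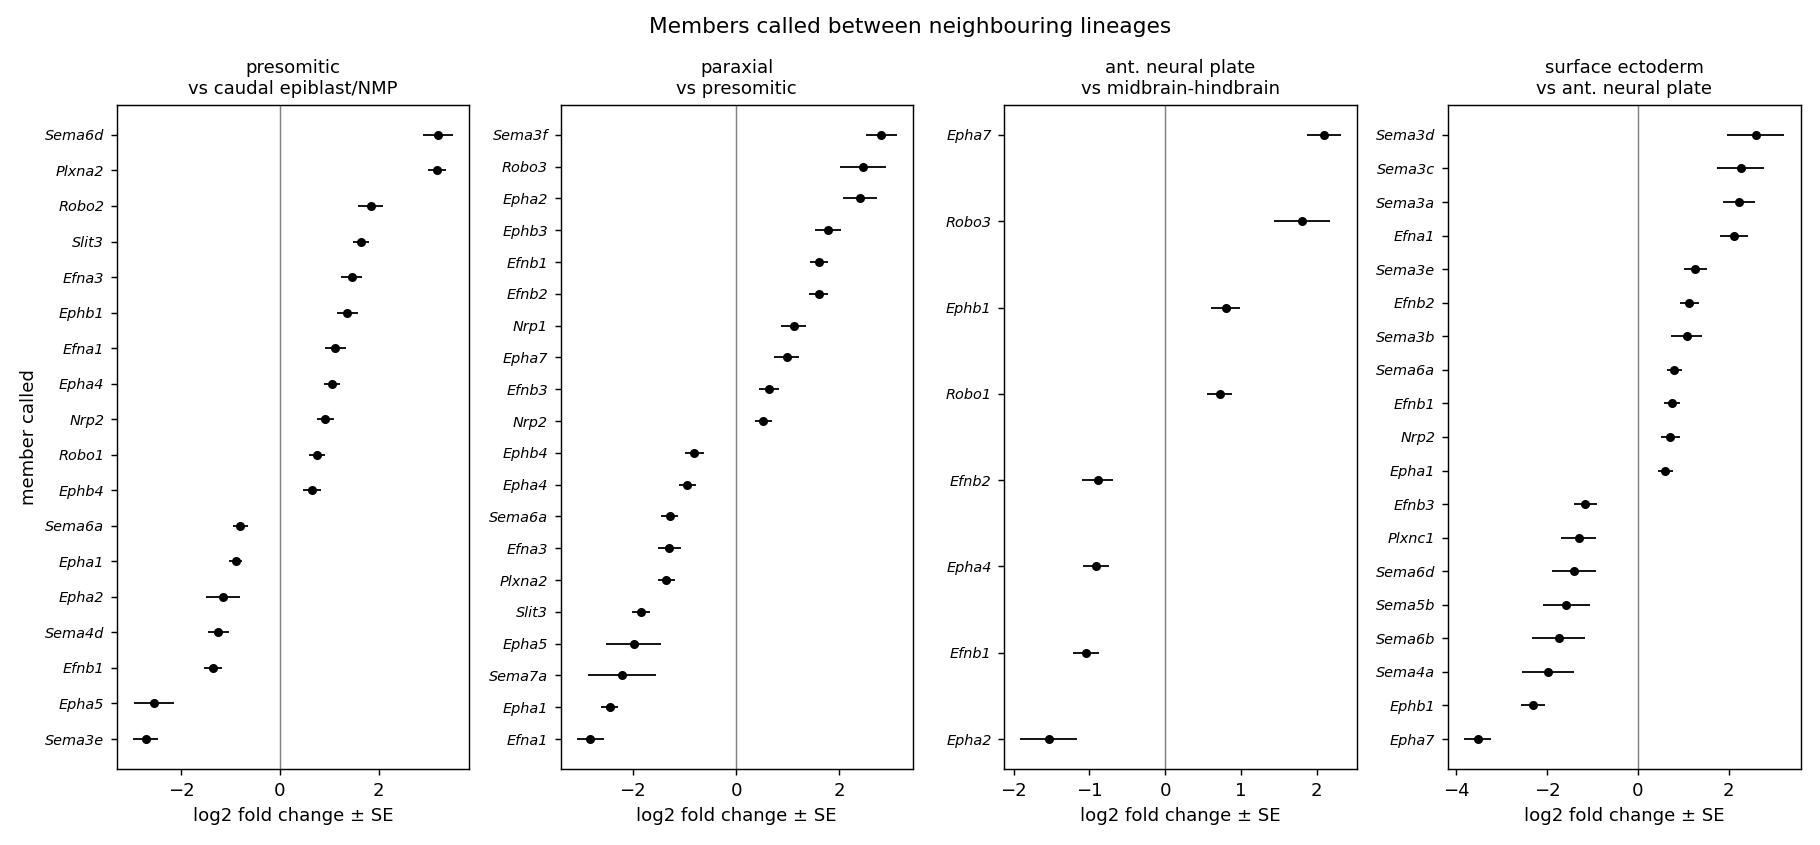
Log2 fold change ± SE (x axes) of the guidance genes called in 4 of the 8 pairs of neighbouring lineages, sorted by size, with positive values for genes higher in the lineage named first. The 8 genes in the anterior neural plate panel lie between -1.54 (Epha2) and 2.09 (Epha7), and the largest value of the presomitic panel is Sema6d at 3.21.

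LRO-like and axial mesoderm-like cells differed in 5 of 53 guidance genes (9.43%), below the 13.3% of all genes (8.38% higher, 4.91% lower). Efnb2 was higher in LRO-like cells by 1.83 (SE 0.360, edgeR adjusted p = 2.0e-04), at 93.7, 79.4 and 46.1 CPM against 8.59, 17.5 and 36.7 CPM, so embryo 1 carried the widest gap and without it the difference was 1.14 (edgeR adjusted p = 0.0984). Epha2 was higher by 2.45 (SE 0.773, edgeR adjusted p = 0.026), which was lost without embryo 1 (2.72, edgeR adjusted p = 0.18) and embryo 2 (2.02, edgeR adjusted p = 0.29), with the loose gate (2.16, edgeR adjusted p = 0.0535) and without likely doublets (2.06, edgeR adjusted p = 0.0746).

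The other 3 calls were lower in LRO-like cells. Efna4 fell by 1.01 (SE 0.272, edgeR adjusted p = 0.0076), but by 0.97 without embryo 1 (edgeR adjusted p = 0.0589) and by 0.77 without embryo 3 (edgeR adjusted p = 0.208). Sema6d had 0 UMIs in LRO-like and 10 in axial mesoderm-like cells, at least 3.43-fold lower with 3 UMIs over the group as the floor (edgeR adjusted p = 0.132 without embryo 1 and 0.0593 without embryo 2). Sema3f had 3 against 23 UMIs, a ratio of 7.89 (95% exact interval 2.38 to 41.1) that covers counting error only, and lost its call without embryo 1 (edgeR adjusted p = 0.221) and embryo 3 (edgeR adjusted p = 0.0868). The count was 0, 3 and 3 without embryos 1, 2 and 3.

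Definitive and extraembryonic endoderm-like cells differed in 40 of 53 (29 higher in definitive endoderm, 11 lower) against 59.7% of all genes (28.0% and 31.7%). Ephb2 was higher in definitive endoderm by 4.004 (SE 0.173) and Sema3f by 3.48, while Sema4a fell by 2.62 and Sema4g by 2.21. Sema6b also fell by 2.62, and by 1.77 without embryo 3 (edgeR adjusted p = 0.0734). Sema4f rested on 8 UMIs against 0, at least 6.07-fold with the floor of 3 UMIs, and was not called without embryo 3 (edgeR adjusted p = 0.14).

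Endothelium-like cells differed from extraembryonic mesenchyme-like cells in 31 of 53 (8 higher, 23 lower) against 31.9% of all genes (15.8% and 16.1%). Plxnd1 was higher by 4.43 (SE 0.355) and Plxnc1 by 4.17, and Robo4 had 34 UMIs against 1, a ratio of 48.8 (95% exact interval 8.18 to 1982, counting error only). Robo4 was not tested without embryo 1. Efnb1 fell by 2.98 (SE 0.177), Sema5a by 2.73 and Plxna4 by 2.69.

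Allantois-like cells differed from extraembryonic mesenchyme-like cells in 18 of 53 (4 higher, 14 lower) against 18.3% of all genes (6.53% and 11.7%). Efna1 was higher in allantois-like cells by 1.33 and Efnb3 by 0.93, while Plxna2 fell by 3.84 (SE 0.270), Plxna4 by 3.09 and Sema5a by 2.16. Plxnd1 was higher by 1.54 (edgeR adjusted p = 0.017) but not without embryo 3 (1.44, edgeR adjusted p = 0.196) or in limma-voom (1.57, adjusted p = 0.0581).

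Known ligand and receptor partners were then set side by side over the 16 lineages, which share 3 libraries, with Pearson's r of log2(CPM + 1) as a description. Of 22 pairs listed, 21 had both partners tested, and 15 of these were called higher together in at least 1 lineage and 6 in none. Shared lineages were not counted for other gene pairs, and r was not taken for them. The counts and r values therefore do not tell whether partners share lineages more or less often than unrelated genes called as often. Sema3e was called higher in 6 lineages and its receptor Plxnd1 in 3, with none in common (r = -0.43). Sema3e was at 34.3 CPM in LRO-like and 1.47 CPM in endothelium-like cells, and Plxnd1 at 4.88 CPM in LRO-like and 33.3 CPM in endothelium-like cells. Sema6a and Plxna4 were called in 5 and 2 lineages, with none in common (r = -0.48), and Slit2 and Robo1 in 3 and 8, with none in common (r = 0.37), while Slit2 and Robo2 shared 1 (r = 0.42). Efnb2 and Ephb4 shared none of their 5 and 3 lineages (r = 0.30), and Ephb4 was at 22.4 CPM in LRO-like cells, where Efnb2 was highest.

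Other pairs overlapped. Slit3 was called higher in 6 lineages and Robo2 in 5, and 3 were shared (r = 0.74). Both were lowest in erythroid-like cells, at 0.805 and 0.485 CPM. In LRO-like cells, where Slit3 was highest, Robo2 was at 6.57 CPM. Efna5 and Epha7 were called in 8 and 5 lineages and shared 4 (r = 0.55), and Efna1 and Epha4 were called in 8 and 7 and also shared 4. Efnb1 and Ephb2 shared 3 of 5 and 6.

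**Figure D5:**
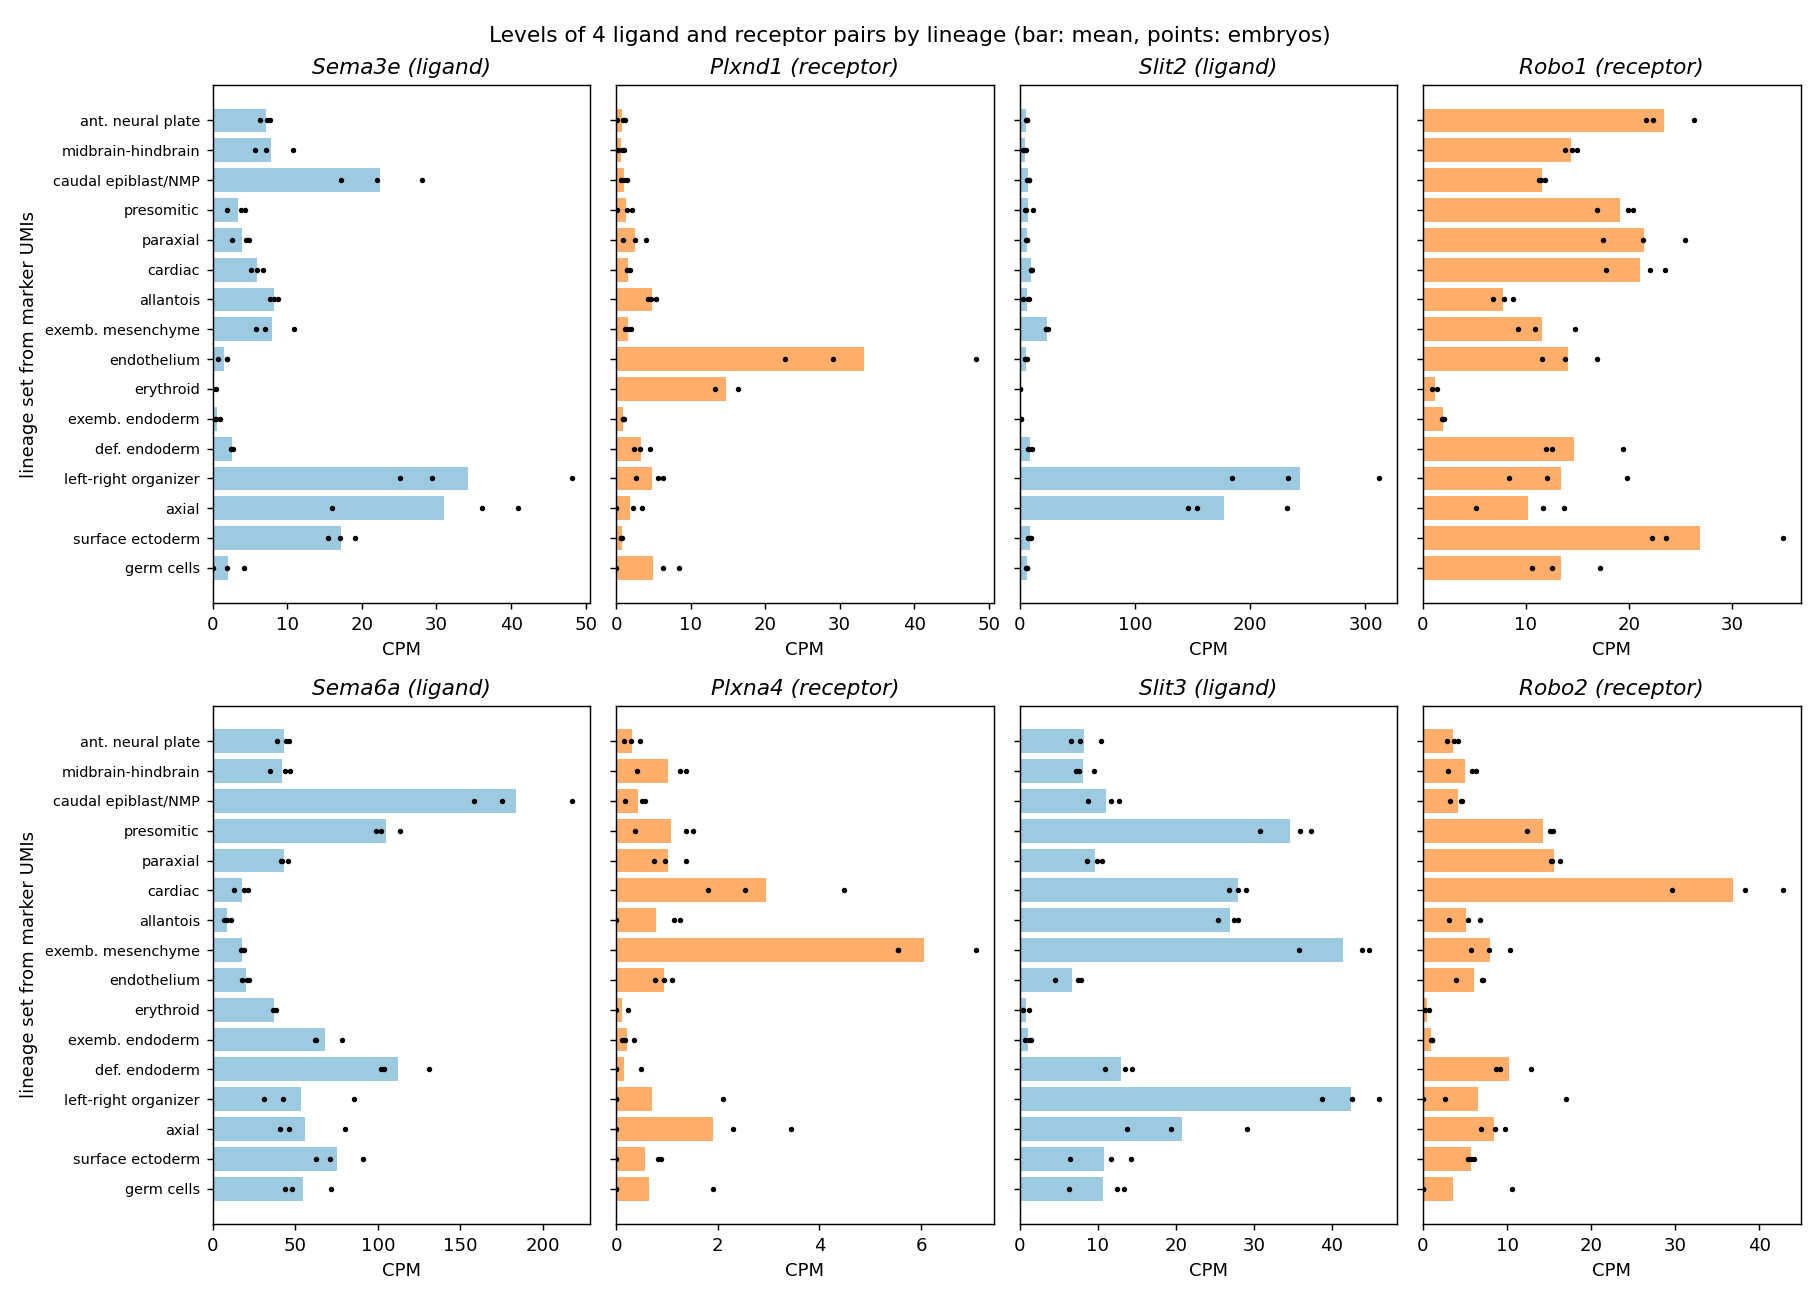
Levels in CPM (x axes, linear, each starting at 0) of 4 ligand (blue) and receptor (orange) pairs in 16 lineages, with bars for means and points for embryos. For Sema3e and Plxnd1 the long bars lie in different lineages (left-right organizer, axial and caudal epiblast/NMP against endothelium and erythroid), while Slit3 and Robo2 are both raised in presomitic and cardiac cells.

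A lineage was also split by a single gene where guidance genes are known to follow it. Endothelium-like cells with a UMI of Dll4, a Notch ligand of arterial cells, numbered 55, 54 and 32, and those without 173, 207 and 432. Of 29 guidance genes tested none was called by edgeR, DESeq2 or limma-voom, 4 had an unadjusted p under 0.05, and 0.0106% of all genes were called. Efnb1 was at 6.54, 6.63 and 8.42 CPM with and at 16.7, 19.2 and 19.2 CPM without Dll4, without overlap (-1.40, SE 0.251, edgeR adjusted p = 0.23), and with the embryo as a block the adjusted p was 0.00417. Plxnd1 was at 44.6, 58.9 and 30.3 CPM with and at 23.6, 43.8 and 22.0 CPM without (0.70, edgeR adjusted p = 0.912, and 0.0297 with the block). The arterial ligand Efnb2 (-0.17, SE 0.278) and the venous receptor Ephb4 (0.06, SE 0.234) had edgeR adjusted p-values of 1.

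Epha4 was looked at in cells with Egr2, a regulator of hindbrain segments, and Mesp2, a regulator of somite borders. Cells with a UMI of Egr2 numbered 8, 5 and 3 among midbrain-hindbrain-like cells and had 120, 220 and 81.8 CPM of Epha4, against 115, 96.1 and 99.5 CPM in those without. Cells with a UMI of Mesp2 numbered 13, 5 and 3 among presomitic mesoderm-like cells and had 195, 243 and 173 CPM of Epha4, against 186, 145 and 161 CPM. These numbers of cells were too small for a fit, and no test was made.

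The filter on low counts left out 10 of the 63 guidance genes: Epha3, Epha6, Epha8, Epha10, Plxnb3, Sema3g, Slit1, Plxna4os1, Plxna4os2 and Plxna4os3. Plxna4os3 had 0 UMIs, Plxna4os2 had 5 and Plxna4os1 had 18. With so few UMIs these values are uncertain. Sema3g had 141 UMIs and was highest in presomitic mesoderm-like cells, at 1.32 CPM.

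Genes of neighbouring pathways were read from lists. The list of netrin ligands and draxin held 7 genes, of which 5 were tested and Ntn3 was not analysed here. In LRO-like cells 2 of these 5 were called higher and none lower, among them Ntng1, a membrane-anchored netrin, by 4.11 (SE 0.228, edgeR adjusted p = 1.1e-19). Of 6 repulsive guidance molecules and Flrt proteins 2 were higher, Flrt3 by 2.62 (SE 0.165) and Rgma by 1.71 (SE 0.207), and of 29 intracellular effectors 3 were higher and 3 lower. In axial mesoderm-like cells Ntng1 (3.29), Ntn1 (1.48), Flrt3 (2.71) and Rgma (2.59) were also higher. In endothelium-like cells 14 of the 29 effectors were higher and 5 lower, with none of the netrin ligands and draxin higher and 2 of 5 lower. Of 8 co-receptors and shared ligands 1 was higher and 2 were lower there. The higher one was Vegfc, a growth factor of vessels, by 2.02 (SE 0.199, edgeR adjusted p = 1.5e-11). Of 5 netrin receptors tested 1 was higher and 1 lower in LRO-like cells, and 2 were higher and 1 lower in endothelium-like cells. Over all genes 37.3% were called in LRO-like cells (20.4% higher, 16.9% lower) and 16.2% in axial mesoderm-like cells (9.25% higher, 6.95% lower). In endothelium-like cells 41.4% were called (25.1% higher, 16.3% lower).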

How the data were processed

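Single-cell RNA was measured in 3 whole mouse embryos, 1 library each. Per the labels, the authors made the deposited UMI counts with Cell Ranger 3.1.0 against mm10, as whole numbers per gene and cell with no normalization, and pooled no embryos. Cells with 1500 to 8500 genes (7500 in embryo 2) and 0.5 to 10% mitochondrial UMIs were kept, and doublets were not removed in the main analysis. A cell was placed in a lineage when the mean of its 4 highest scaled markers reached 0.3 and at least 3 markers had a UMI. Every other lineage had to score at most 0.7 of that, on markers not shared between lists. For LRO-like cells the axial mesoderm score was left out of this rule, and cells that met both rules were taken as LRO-like. Counts were summed per embryo and lineage (at least 10 cells) and tested in 1 fit with edgeR 4.0.16 (TMM, filterByExpr, quasi-likelihood, Benjamini-Hochberg) in R 4.3.3. DESeq2 1.42.0 and limma 3.58.1 were alternatives, and the edgeR fit was tested on simulated sums. Intervals and floors cover counting error only.

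The guidance genes and the lists were chosen with earlier results of these data known, and the rule that scored cells was set after the counts had been seen, on numbers of cells. Genes named were, for each lineage, up to 3 with the largest difference among those called higher, at 20 CPM or more and higher in each embryo, up to 3 each way for each pair of lineages, the ligand and receptor pairs, the genes of the splits and those left out by the filter. Other genes named, among them low semaphorins, plexins and receptors, were chosen after their values were seen. The embryos are separate animals, and sums of the same embryo pair across lineages: their deviations from the lineage means correlated with a median of 0.150 over 315 pairs, against -0.0615 over 630 pairs from different embryos.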

Additional observations from a re-analysis of the deposited data

How the results depend on the processing

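The counts of guidance genes called stayed within 1.5 times in 25 of 25 comparisons under DESeq2, limma-voom, the loose and strict gates, without likely doublets and without the mitochondrial minimum. limma-voom and leaving out the erythroid-like sums were chosen after seeing the data. Thinning each cell to 5000 UMIs lowered the count to 10 in allantois, 13 in anterior neural plate, 3 in axial mesoderm, 14 in NMP, 21 in definitive endoderm, 21 in endothelium, 25 in extraembryonic endoderm, 16 in extraembryonic mesenchyme, 5 in midbrain-hindbrain, 17 in presomitic mesoderm, 2 in germ cell and 8 in surface ectoderm-like cells. It gave 2 between anterior neural plate and midbrain-hindbrain, 0 between LRO and axial mesoderm, 3 between surface ectoderm and anterior neural plate and 7 between allantois and extraembryonic mesenchyme, and it left fewer UMIs by construction. Without the erythroid-like sums the midbrain-hindbrain count was 17. Leaving out 1 embryo gave 9 to 11 in axial mesoderm, 14 to 21 in midbrain-hindbrain and 3 to 9 in germ cell-like cells, 3 to 4 between anterior neural plate and midbrain-hindbrain, 0 to 3 between LRO and axial mesoderm and 9 to 14 between surface ectoderm and anterior neural plate.

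With the embryo as a replicate block, 1 of 570 calls was lost (Slit3 in axial mesoderm-like cells) and 60 were gained. For the Dll4 split the block gave 2 calls and no low-count filter gave 1, where the fit without either gave 0. Ephb4 in that split turned from 0.06 to -0.024 with the block, to -0.0495 with the strict gate, to -0.57 thinned and to -0.11 without likely doublets, and ranged from -0.014 to 0.17 without 1 embryo, lowest without embryo 3, while Sema6d between LRO and axial mesoderm-like cells was at 0.00 when thinned. The cause was not tested. DESeq2 moved the median log2 difference of all genes by over 0.1, to 0.253 in LRO-like from -0.0272, to 0.144 in axial mesoderm-like from -0.036, to 0.129 in germ cell-like from -0.13, to 0.0961 between definitive and extraembryonic endoderm-like from -0.0173, and downward to -0.357 in erythroid-like from -0.164 and to -0.142 in extraembryonic endoderm-like cells from 0.0144. limma-voom gave 0.183, 0.145 and 0.213 in LRO, axial mesoderm and germ cell-like cells. Depth limits the LRO, axial and germ cell-like sums most.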
